A study of Mus musculus with 6 samples.

Results

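The 28 genes described here encode the enzymes that make cholesterol from acetyl-CoA units, the proteins that carry and cut the transcription factor SREBP2, and 2 sterol-related proteins, Stard4 and Tmem97. They were picked by gene symbol for their known roles, with earlier results of these data known, from 23207 symbols with a row of counts, and all 28 passed the expression filter that kept 19745 genes for testing. RNA was taken from endothelial cells of the spleen in Apoe-knockout mice, in which the loss of apolipoprotein E lets cholesterol-rich lipoproteins build up in blood. Mice 1601, 1602 and 1608 received a control ASO (antisense oligonucleotide) for 8 weeks, and mice 1603, 1604 and 1607 received for the same time an ASO against Mlkl, which encodes the effector of necroptosis. Both groups lacked Apoe and both were fed a high cholesterol diet, so the series compares the 2 ASOs under cholesterol loading and holds no group on standard diet, no group with intact Apoe and no group without an ASO. Each library was 1 mouse. The title of the series places the question in the splenic environment and in blood cell formation during atherosclerosis.

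Cells adjust cholesterol synthesis to the sterol content of the endoplasmic reticulum. When sterol is scarce, Scap escorts SREBP2, the product of Srebf2, to the Golgi, where the proteases encoded by Mbtps1 and Mbtps2 release its transcription factor domain, which then raises the genes of nearly every step from acetyl-CoA to cholesterol. When sterol is plentiful, the Insig proteins hold Scap in the endoplasmic reticulum, and these genes are turned down together. Insig1 and Srebf2 are themselves SREBP2 targets, which closes a feedback loop. Endothelial cells meet lipoproteins of the blood directly.

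Promoter sequences of 4 of these genes are shown with the motifs by which SREBP2 targets are usually recognised. Srebf2 and Msmo1 are shown because they had the lowest log2 fold changes of the 28 genes, and Hmgcs1 and Insig1 because their windows hold a sterol regulatory element core. Each run gives, 5′ to 3′ in the direction of transcription, the 250 bases before the gene's start in RefSeq (GRCm38.p6). Capitals mark the sterol regulatory element core CACNCCAC, a second form of it, TCACCCCA, and the box CCAAT, to which the factor NF-Y binds beside SREBP, each on either strand. The runs lie at chr15:82147019-82147268 on the plus strand (Srebf2), chr8:64733579-64733828 on the minus strand (Msmo1), chr13:119690101-119690350 on the plus strand (Hmgcs1) and chr5:28071162-28071411 on the plus strand (Insig1).
Srebf2: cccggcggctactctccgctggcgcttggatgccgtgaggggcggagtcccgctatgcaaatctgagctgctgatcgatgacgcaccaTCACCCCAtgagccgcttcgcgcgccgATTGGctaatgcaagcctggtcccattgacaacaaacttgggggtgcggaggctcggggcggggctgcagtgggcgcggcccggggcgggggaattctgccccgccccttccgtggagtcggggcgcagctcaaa
Msmo1: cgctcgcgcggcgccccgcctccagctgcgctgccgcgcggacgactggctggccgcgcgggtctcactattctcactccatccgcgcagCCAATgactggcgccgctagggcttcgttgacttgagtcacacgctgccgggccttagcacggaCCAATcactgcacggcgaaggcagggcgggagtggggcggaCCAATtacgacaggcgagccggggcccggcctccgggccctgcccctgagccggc
Hmgcs1: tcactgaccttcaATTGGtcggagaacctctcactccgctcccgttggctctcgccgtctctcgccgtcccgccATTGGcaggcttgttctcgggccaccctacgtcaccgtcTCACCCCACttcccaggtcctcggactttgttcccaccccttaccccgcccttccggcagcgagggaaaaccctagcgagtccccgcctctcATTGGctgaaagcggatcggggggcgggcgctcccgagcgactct
Insig1: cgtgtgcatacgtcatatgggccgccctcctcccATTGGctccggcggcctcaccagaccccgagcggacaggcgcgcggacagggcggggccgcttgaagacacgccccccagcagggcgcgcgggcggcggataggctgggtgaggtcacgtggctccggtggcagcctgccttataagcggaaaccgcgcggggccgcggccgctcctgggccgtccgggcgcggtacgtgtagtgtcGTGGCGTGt

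In Hmgcs1 the core lies 136 bases before the start and overlaps the second form, and in Insig1 it lies 9 bases before the start on the opposite strand. In Srebf2 the second form lies 162 bases before the start. The window of Msmo1 holds neither form, and its capitals mark 3 CCAAT boxes. RefSeq windows of 300 bases, from 250 before to 50 after a start, were available for 24 of the 28 genes (30 windows). The core CACNCCAC was found in 3 of the 24 genes (12.5%; Hmgcs1, Insig1 and Acat2) and in 7.12% of all 27025 genes with a window. The form TCACCCCA, which was added to the search after the windows had been seen, was found in 2 of the 24 genes and in 1.77% of all genes. CCAAT was found in 20 of the 24 genes (83.3%), against 41.1% of all genes and 42.9% of the 9279 genes expressed at or above the level of the lowest of the 28. The GC box GGGCGG was found in 21 (87.5%), against 38.2% of all genes and 68.1% at that level. The E-box CACGTG was found in 5 of the 24 genes (20.8%), against 8.09% of all genes and 11.7% at that level. These matches describe letters in a window and say nothing of binding.

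The libraries held from 59988846 to 87776706 estimated counts, and the lowest of the 28 genes in any library still had 178 counts. Mlkl, the target of the ASO, measured 30.7 to 38.0 CPM in the control group and 3.74 to 7.53 CPM in the MLKL ASO group, so each mouse fitted its label, although the difference did not pass the threshold used below (edgeR adjusted p = 0.0655). CPM, the usual unit of library-scaled counts, were computed from library totals after TMM scaling. All 10 endothelial markers examined were expressed, for example Pecam1 at 279 to 414 CPM and Cdh5 at 107 to 236 CPM over 6 mice. Their summed level was 4803 to 8210 CPM in control and 3729 to 5111 CPM in MLKL ASO mice. Plvap was the largest part of this sum, at 2726 to 4470 CPM in control and 1152 to 2455 CPM in MLKL ASO mice. Emcn was higher with the MLKL ASO, at 39.7 to 53.2 CPM against 29.5 to 36.3 CPM in control. Each of the other markers overlapped between the groups. In log2 fold change 8 of the 10 genes lay below 0. Markers of other cells were present and differed between mice. Summed over 12 genes of cycling cells, the level was 625 to 1334 CPM in control and 1211 to 1717 CPM in MLKL ASO mice, with 12 of 12 genes above 0 in log2 fold change. The sums over 12 erythroid markers (26278 to 76198 against 40332 to 91529 CPM) and 8 megakaryocyte markers (100 to 1464 against 1316 to 2734 CPM) overlapped, and 12 of 12 and 8 of 8 of these genes lay above 0. The sum over 10 T and NK cell markers was 285 to 724 CPM in control and 208 to 235 CPM in MLKL ASO mice, with 10 of 10 below 0, and all 9 B cell and all 7 plasma cell markers also lay below 0. Control mice 1608 and 1601 stood apart in different markers. Mouse 1608 had the lowest sums for cycling, erythroid, megakaryocyte and neutrophil markers and the highest endothelial sum (8210 against 3729 to 6345 CPM in the other mice). Mouse 1601 had the highest sums for T and NK cell (724 CPM), B cell (11002 CPM) and plasma cell markers (3151 CPM). The next highest, in mouse 1602, were 411, 7314 and 2299 CPM. In bulk RNA a smaller share of a cell type and less RNA per cell cannot be told apart, and the part of these markers in the results below was not tested.

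Genes of cholesterol synthesis showed no difference between MLKL ASO and control ASO mice that passed the test. By edgeR's quasi-likelihood test, with p-values adjusted over all 19745 genes by the Benjamini-Hochberg method and a threshold of 0.05, 0 of the 28 genes were called in either direction, where 0.0101% of all genes were called. Their adjusted p-values ran from 0.388 to 0.994. At an unadjusted p under 0.05 there was 1 gene of 28 (3.57%), Srebf2, against 11.8% of all genes tested. DESeq2 also called 0 of the 28 (lowest adjusted p 0.247), where it called 2.61% of all genes. The log2 fold changes, MLKL ASO over control ASO, ran from -0.48 (Srebf2) to 0.28 (Sqle), with 12 above 0 and 16 below 0. Their median was -0.03, and that of all genes tested was -0.01. Without regard to sign, the median size of the log2 fold change was 0.12 in the 28 genes, 0.26 in all genes tested and 0.19 in the 12013 genes expressed at or above the level of the lowest of them.

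The intervals show what these 6 mice could resolve. For 27 of the 28 genes the 95% interval of the log2 fold change, taken gene by gene without correction, lay within a 2-fold change in either direction, and for 14 it lay within a 1.5-fold change. Sqle was the gene whose interval reached past 2-fold, from -0.77 to 1.32. The interval held 0 for 27 genes and lay below 0 for Srebf2 (-0.92 to -0.05). Since 3 mice against 3 can give no exact two-sided permutation p under 0.1, no single gene could pass that test.

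**Figure D1:**
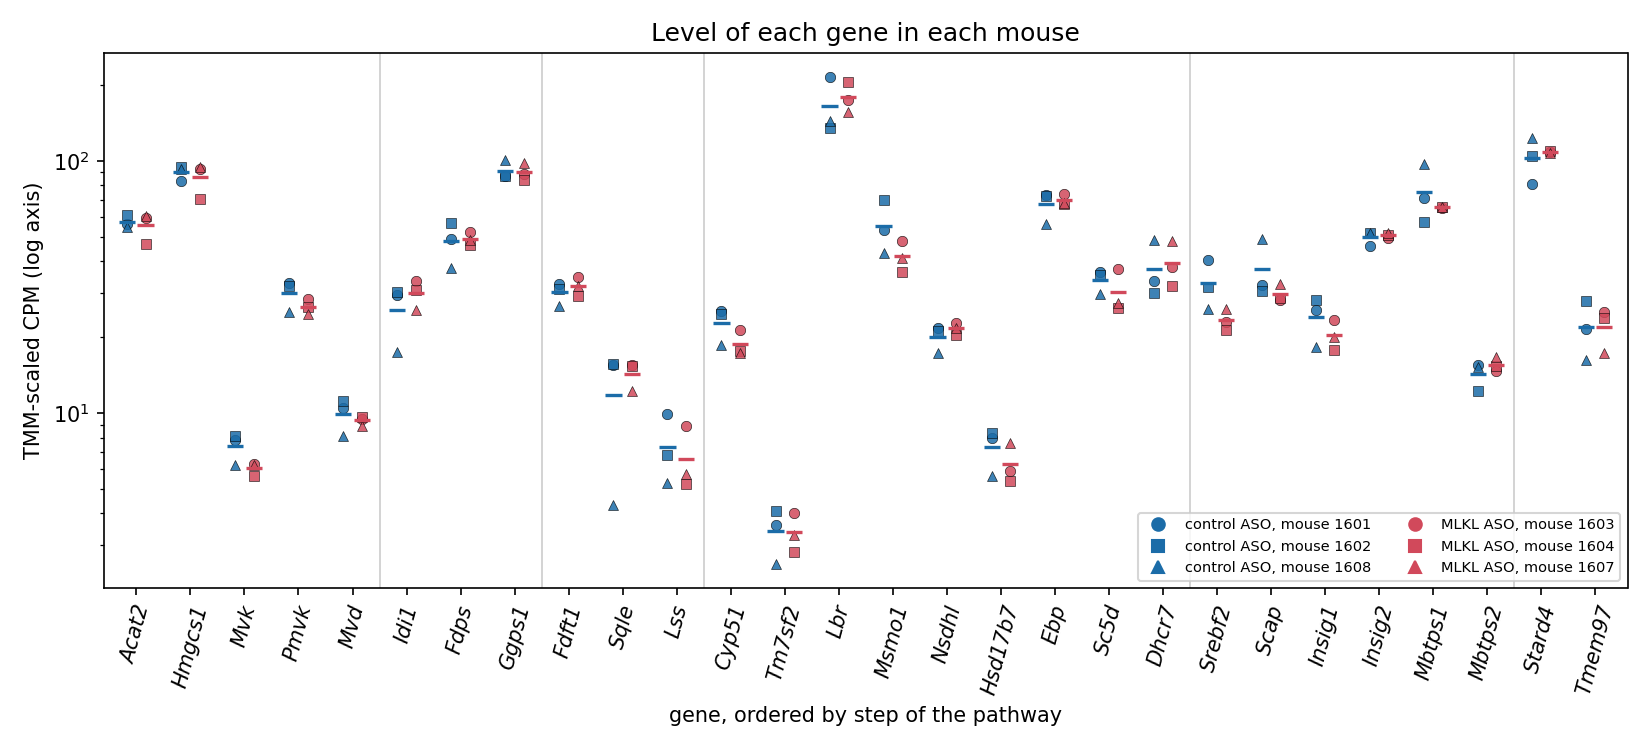
Level of each of the 28 genes in each mouse, in TMM-scaled CPM on a log axis, with genes on the horizontal axis in the order of the pathway. Blue points are control ASO mice, red points MLKL ASO mice, the shape gives the mouse and the short bars are group means (n = 3). Blue and red points overlap for every gene but Srebf2, and the blue triangle of mouse 1608 lies low for Sqle at 4.31 CPM.

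Srebf2, the gene of the transcription factor itself, was the 1 gene of the 28 whose values did not overlap between the groups. It measured 40.5, 31.6 and 26.0 CPM in control mice 1601, 1602 and 1608, and 23.1, 21.3 and 25.8 CPM in the MLKL ASO mice (1603, 1604 and 1607). Without overlap between the groups, the lowest control mouse and the highest MLKL ASO mouse still lay next to each other. The means were 32.7 ± 7.32 CPM (SD, n = 3) and 23.4 ± 2.29 CPM (SD, n = 3), which gives a log2 fold change of -0.48 (SE 0.19) that did not pass the test (edgeR adjusted p = 0.388, unadjusted p = 0.034, exact two-sided permutation p = 0.1). Across 14 alternatives of scaling, filter, tool and left-out mouse the log2 fold change stayed between -0.62 and -0.32, and the adjusted p between 0.174 and 0.716. The value of -0.62 was found without control mouse 1608 and that of -0.32 without control mouse 1601. With upper-quartile scaling the groups overlapped. Genes whose groups do not overlap made up 9.71% of all genes in the lower direction, so 1 of 28 (3.57%) is below that background, and in the higher direction there were 0 of 28 against 9.02%. With 1 mouse fewer, groups fail to overlap more often in all genes, and the lower count of the 28 was read against that share. It was 2 (7.14%) without mouse 1602 or 1604, where 14.8% and 13.4% of all genes were lower without overlap. It was 3 (10.7%, against 13.6%) without mouse 1607 and 4 (14.3%, against 16.4%) without mouse 1601. It was above the share of all genes without mouse 1603, at 5 (17.9%, against 13.7%), and without mouse 1608, at 8 (28.6%, against 17.7%).

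The other genes of SREBP processing did not pass the test, and their values overlapped between the groups. Scap, the sterol sensor that escorts SREBP2, measured 32.1, 30.4 and 49.0 CPM in control mice and 28.1, 28.5 and 32.4 CPM in MLKL ASO mice. The high value belongs to control mouse 1608, and the log2 fold change of -0.32 became -0.07 without it. Mbtps1, the site-1 protease, behaved alike: control mice ranged from 57.0 to 96.8 CPM with mouse 1608 highest, MLKL ASO mice lay between 64.9 and 65.8 CPM, and the log2 fold change of -0.20 became 0.03 without mouse 1608. Mbtps2, the site-2 protease, measured 14.3 ± 1.84 and 15.6 ± 1.04 CPM.

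The 2 Insig genes differ in control, since Insig1 is an SREBP target and Insig2 is regulated by other signals. Insig1 measured 25.6, 28.1 and 18.3 CPM in control mice and 23.3, 17.8 and 19.9 CPM in MLKL ASO mice, with overlap and a log2 fold change of -0.24 (SE 0.20). Insig2 had the smallest standard error of the 28 genes, 0.11, at 46.0 to 51.6 CPM in control and 49.4 to 51.9 CPM in MLKL ASO mice, with an interval of -0.22 to 0.28 for its log2 fold change. The ratio of Insig1 to Insig2 CPM within a library, which needs no scaling between libraries, was 0.557, 0.546 and 0.354 in control mice 1601, 1602 and 1608, and 0.472, 0.348 and 0.384 in MLKL ASO mice 1603, 1604 and 1607. Mouse 1608 thus lay among the MLKL ASO mice, and the groups overlapped (exact two-sided permutation p = 0.3). This ratio was chosen after the values had been seen.

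The mevalonate steps held 0 of 5 genes called, and all 5 log2 fold changes lay below 0 (-0.29 to -0.05). Acat2, the cytosolic thiolase that joins acetyl-CoA units, measured 57.3 ± 3.21 and 55.4 ± 7.58 CPM in control and MLKL ASO mice. Hmgcs1, HMG-CoA synthase, measured 83.3, 94.4 and 92.7 CPM in control mice and 93.2, 70.6 and 94.8 CPM in MLKL ASO mice. A single low value, in mouse 1604, set the lower mean of the MLKL ASO group, and the interval of the log2 fold change was -0.40 to 0.27. The 2 kinases of the pathway and the decarboxylase were lower in mean: Mvk, mevalonate kinase, had 7.39 ± 1.01 and 6.03 ± 0.350 CPM, Pmvk, phosphomevalonate kinase, 29.9 ± 4.07 and 26.4 ± 1.83 CPM, and Mvd, mevalonate diphosphate decarboxylase, 9.93 ± 1.63 and 9.36 ± 0.401 CPM. In each of these 3 genes control mice 1601 and 1602 lay above all MLKL ASO mice and control mouse 1608 within or below them.

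The isoprenyl steps, which lead both to sterols and to protein prenylation, showed 0 of 3 genes called. Idi1, the isomerase of isopentenyl diphosphate, measured 29.3, 30.2 and 17.4 CPM in control mice and 33.5, 30.6 and 25.6 CPM in MLKL ASO mice. Fdps, farnesyl diphosphate synthase, measured 47.9 ± 9.61 and 48.9 ± 3.04 CPM. Ggps1, which makes the geranylgeranyl group for small GTPases, measured 91.5 ± 7.91 and 90.3 ± 7.21 CPM, with an interval of -0.30 to 0.26. For Idi1 and Fdps mouse 1608 was the lowest of the 6 mice, and without it the log2 fold changes of 0.22 and 0.03 became 0.01 and -0.11.

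Among the squalene steps, where the pathway commits to sterols, Sqle varied most. Sqle, squalene epoxidase, a rate-limiting enzyme of the sterol branch, measured 15.5, 15.7 and 4.31 CPM in control mice and 15.4, 15.3 and 12.2 CPM in MLKL ASO mice. Mouse 1608 was 3.61 times lower than the mean of the other 2 control mice, while those 2 lay close to MLKL ASO mice 1603 and 1604. Its log2 fold change of 0.28 (SE 0.44) over 6 mice turned to -0.12 without mouse 1608. Fdft1, squalene synthase, measured 30.1 ± 3.03 and 31.8 ± 2.65 CPM, and Lss, lanosterol synthase, 7.32 ± 2.35 and 6.60 ± 1.96 CPM. Fdft1 shares 774 exon bases with Ctsb on the opposite strand (2253 CPM in control mice), so its level is uncertain where counting did not use strand.

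The 9 genes that turn lanosterol into cholesterol held 4 log2 fold changes above 0 and 5 below 0, with 0 called. Msmo1, the C4-methylsterol oxidase, measured 53.1, 70.0 and 43.1 CPM in control mice and 48.2, 36.4 and 41.3 CPM in MLKL ASO mice. Only control mouse 1608 lay within the range of the MLKL ASO group, and the log2 fold change was -0.40 (SE 0.20, edgeR adjusted p = 0.476). Cyp51, the lanosterol demethylase, gave the same picture with 25.3, 24.7 and 18.5 CPM in control and 21.4, 17.6 and 17.3 CPM in MLKL ASO mice, which gives a log2 fold change of -0.28 (SE 0.17, edgeR adjusted p = 0.562). Hsd17b7, the 3-ketosteroid reductase of the C4 demethylation complex, measured 7.30 ± 1.47 and 6.29 ± 1.16 CPM. Nsdhl, the dehydrogenase of the same complex, measured 20.1 ± 2.41 and 21.7 ± 1.15 CPM, so the 3 enzymes of C4 demethylation did not share a direction.

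Of the other late enzymes, Ebp, the sterol isomerase, measured 67.4 ± 9.47 and 69.8 ± 3.38 CPM, and Sc5d, the C5 desaturase, 33.8 ± 3.65 and 30.1 ± 6.04 CPM. Dhcr7, which reduces 7-dehydrocholesterol, differed more within than between groups: control mice had 33.5, 30.0 and 48.4 CPM and MLKL ASO mice 37.8, 31.8 and 47.9 CPM. Lbr and Tm7sf2 encode sterol C14 reductases, Lbr being also the lamin B receptor of the nuclear envelope. In CPM, without regard to gene length, Lbr was the highest of the 28 genes at 165 ± 43.3 and 179 ± 24.7 CPM. Tm7sf2 was the lowest in CPM, at 3.41 ± 0.807 and 3.38 ± 0.598 CPM. Per kilobase of exon Tm7sf2 was not the lowest, with 2.01 CPM in control mice against 1.45 for Hsd17b7. The ratio of Tm7sf2 to Lbr overlapped between the groups (0.0168 to 0.0304 against 0.0138 to 0.0229).

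Of the 2 genes of sterol handling 0 were called, and their log2 fold changes were 0.07 (Stard4) and 0.01 (Tmem97). Stard4, a soluble carrier of cholesterol between membranes, measured 81.2, 105 and 123 CPM in control mice and 108, 109 and 108 CPM in MLKL ASO mice. Its control values thus spread on both sides of an almost constant MLKL ASO group. Tmem97, the sigma-2 receptor, which binds the lysosomal cholesterol transporter NPC1, measured 21.9 ± 5.81 and 22.0 ± 4.19 CPM.

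**Figure D2:**
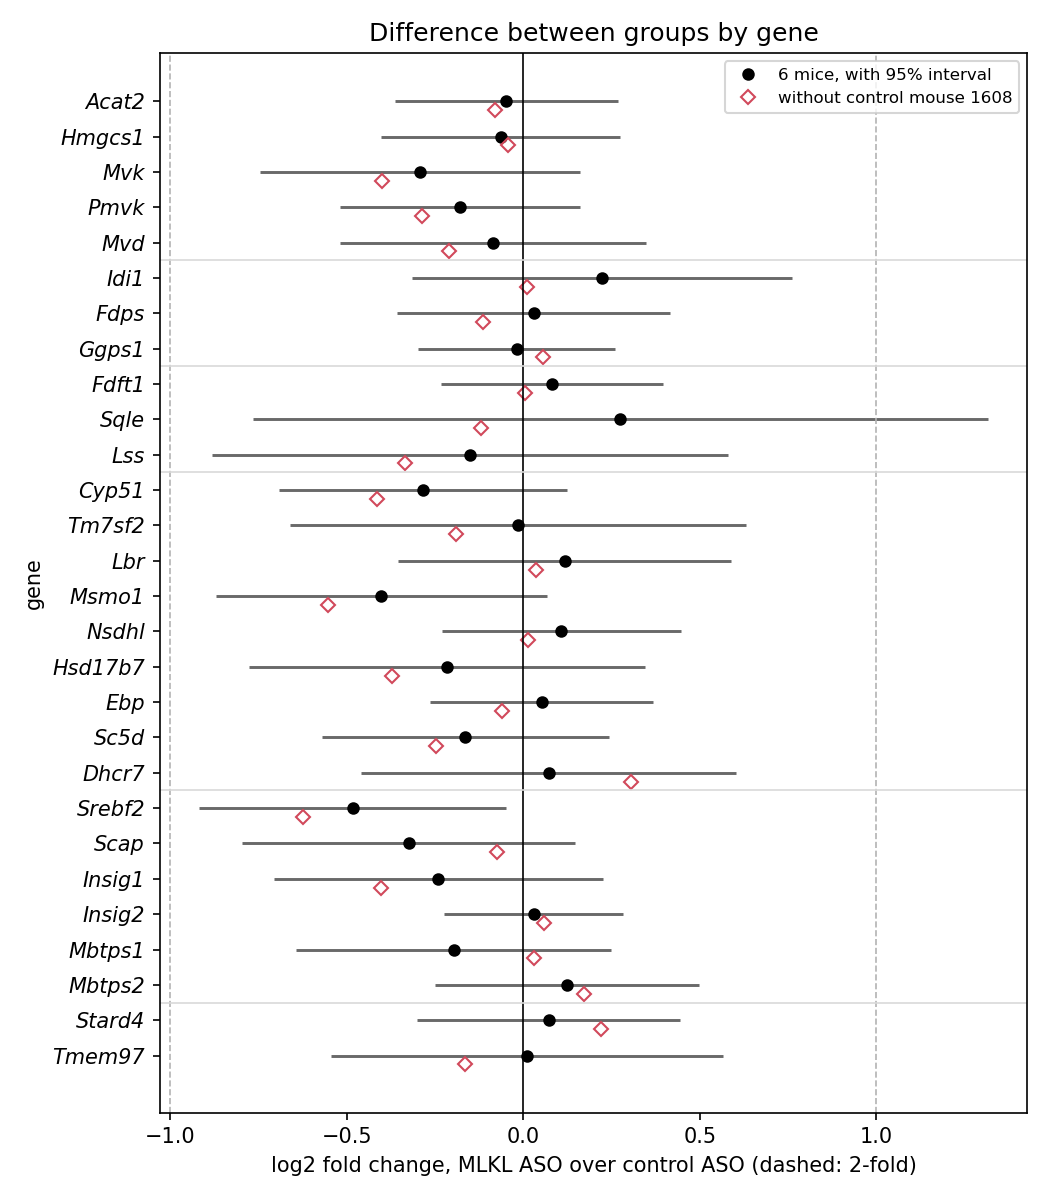
Log2 fold change of each gene, MLKL ASO over control ASO, on the horizontal axis, with genes on the vertical axis in pathway order. Black points with lines give the edgeR estimate and its 95% interval over 6 mice, open red diamonds the estimate without control mouse 1608, and dashed lines a 2-fold change. The interval of Srebf2 alone lies below 0, and that of Sqle alone passes 2-fold.

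Control mouse 1608 weighed on several of these comparisons. It was the lowest of the 6 mice in 9 of the 28 genes (32.1%, against 24.1% of all genes tested) and the highest in 5. Relative to the mean of the other 2 control mice, its CPM was 0.277-fold for Sqle, 0.585-fold for Idi1 and 0.632-fold for Lss. It was 0.655-fold for Tmem97 and for Tm7sf2, and 0.680-fold for Insig1. It was 1.57-fold for Scap, 1.53-fold for Dhcr7 and 1.51-fold for Mbtps1. These genes were picked after their values were seen, as those with the lowest and the highest ratios. MLKL ASO mouse 1604 was the lowest in 10 genes (35.7%, against 11.4% of all genes) and the highest in 0. Mouse 1602 was the highest in 10 (35.7%, against 14.9% of all genes).

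Without mouse 1608, 18 of the 28 log2 fold changes lay below 0 and 10 above, with a median of -0.10, and edgeR called 0 genes (lowest adjusted p 0.174, Srebf2). The groups of 2 and 3 mice did not overlap in 8 genes that were lower with the MLKL ASO (28.6%, against 17.7% of all genes): Srebf2, Msmo1, Cyp51, Insig1, Mvk, Hsd17b7, Pmvk and Mvd. They also did not overlap in 1 gene that was higher, Stard4 (3.57%, against 16.7% of all genes). At an unadjusted p under 0.05 there were 4 of the 28 genes, all lower. These were Srebf2 (log2 fold change -0.62), Msmo1 (-0.55), Cyp51 (-0.41) and Insig1 (-0.40). Counted in both directions, their share was below the 15.2% of all genes. The share of all genes in the lower direction alone was not counted, so these lower genes have no like background. This comparison leaves 2 control mice, and the marker levels given above for mouse 1608 differ from those of the other controls, so its part in the values with all mice was not tested.

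**Figure D3:**
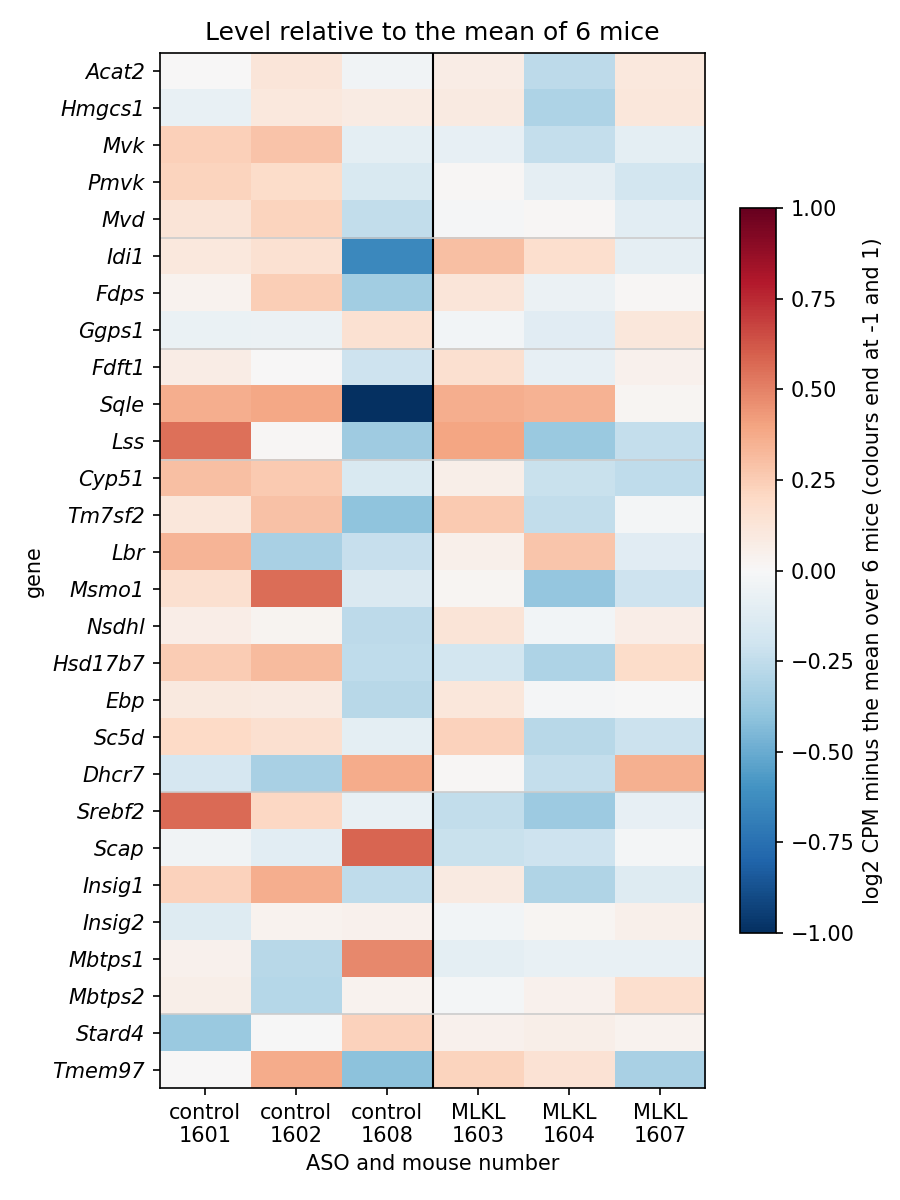
Level of each gene in each mouse as log2 CPM minus the mean of that gene over the 6 mice, with mice in columns (controls left of the line) and genes in rows by pathway step. Red is above and blue below the mean, and colours end at -1 and 1. Control mouse 1608 is the bluest column for Sqle and Idi1 (4.31 and 17.4 CPM) and the reddest for Scap and Mbtps1 (49.0 and 96.8 CPM).

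Levels can be compared between genes only per length. Divided by exon length in the GENCODE M21 annotation, which may differ from the annotation the authors used, control means ran from 46.9 CPM per kilobase (Lbr), 38.6 (Ebp) and 33.0 (Fdps) down to 1.80 (Mbtps2), 1.57 (Lss) and 1.45 (Hsd17b7). In MLKL ASO mice the same genes stood at 50.9, 40.1, 33.7, 1.96, 1.41 and 1.25 CPM per kilobase, so the top 3 kept their order. Estimates are uncertain where exons are shared with another gene on the same strand, as for Mbtps2 with Yy2 (2867 bases) and Fdps with Gm43738 (1124 bases). The near-identical copy Acat3 had at most 0.533 CPM and the pseudogene Idi1-ps1 at most 1.73 CPM in any mouse.

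Neighbouring pathways, taken from 5 lists with 80 genes of which 78 were tested, also held 0 genes called by edgeR in either direction, with 27 log2 fold changes above 0 and 51 below. At an unadjusted p under 0.05 there were 3 higher and 12 lower, 19.2% of the 78 against 11.8% of all genes. Of 16 tested genes in the remaining sterol synthesis and feedback list, 4 lay above 0 and 12 below (median -0.10), and 2 higher and 2 lower had an unadjusted p under 0.05. In it Aup1, a factor of lipid droplets and of protein disposal at the endoplasmic reticulum, measured 185 ± 13.6 and 149 ± 8.61 CPM. Of 16 genes in the non-sterol branch 6 lay above 0 (median -0.05), among them Nus1, a subunit of the enzyme for dolichol, at 22.7 ± 2.56 and 29.4 ± 4.36 CPM. Rabggta, a subunit of the Rab prenyltransferase, in the same list measured 28.1 ± 2.96 and 20.5 ± 1.59 CPM.

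Srebf1, which encodes the sister factor SREBP1 and drives fatty acid synthesis, differed more than Srebf2. It measured 26.0, 17.7 and 20.7 CPM in control mice and 14.4, 11.3 and 9.53 CPM in MLKL ASO mice, without overlap. Its log2 fold change of -0.87 (SE 0.22) did not pass edgeR's test (adjusted p = 0.313), while DESeq2 called it lower (adjusted p = 0.0195), the 1 related gene that any alternative called. That is 1.28% of the 78 related genes, below the 2.61% of all genes that DESeq2 called. In its list of 16 lipogenic genes 7 lay above 0 and 9 below (median -0.06). At an unadjusted p under 0.05 there were 4 lower and 0 higher of the 16, against 11.8% of all genes in either direction. Aacs, acetoacetyl-CoA synthetase, measured 16.0 ± 2.79 and 11.6 ± 0.691 CPM. Of 18 genes of sterol uptake and transport 5 lay above 0 (median -0.07), and Gramd1a and Gramd1b, which move cholesterol from the plasma membrane to the endoplasmic reticulum, measured 58.3 ± 10.1 and 40.4 ± 3.78 CPM, and 16.2 ± 2.83 and 11.3 ± 1.04 CPM. Of 12 LXR and efflux genes 5 lay above 0 (median -0.06). In it the transcript of Apoe, the gene disrupted in all 6 mice, measured 56.4 ± 16.1 and 34.2 ± 3.98 CPM, and Cyp27a1, sterol 27-hydroxylase, 13.7 ± 1.20 and 10.4 ± 0.781 CPM.

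The authors' deposited table gave 0 of the 28 genes past an adjusted p of 0.05, where 1.81% of its rows with an adjusted p passed. In the authors' deposited table the adjusted p-values of the 28 genes ran from 0.449 (Srebf2) to 0.9999 (Insig2). The authors' deposited table and edgeR gave the same sign for 26 of the 28 genes, and the other 2, Insig2 and Stard4, lay near 0 in both. Srebf2 had a log2 fold change of -0.45 (SE 0.24) in the authors' deposited table, and Msmo1 one of -0.41 (SE 0.24). Both analyses use the same libraries and are not independent.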

How the data were processed

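Bulk RNA sequencing libraries of 6 mice, 3 per group, were compared. The deposited table holds estimated counts per gene symbol, and 69.3% of its values are not whole numbers. Per the submitters' processing notes, fastp 0.20.1, Salmon 1.3.0 and DESeq2 were used, with no role or order named there. Genome build, annotation and strand setting were not given in the sources used here. The authors' second table holds, per the file headers, a mean normalised count (a signal), a log2 fold change with its standard error, a Wald score and p-values. Its sign was checked against the counts (Pearson r 0.977 across 19728 genes, which are not independent replicates), so positive means higher in MLKL ASO.

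Counts were rounded and fitted in R 4.3.3 with edgeR 4.0.16 (default expression filter, TMM, quasi-likelihood test, two-sided, Benjamini-Hochberg over all genes). The standard error is the log2 fold change divided by the root of the F statistic. Alternatives were other scalings and filters, a robust fit, DESeq2 1.42.0, limma-voom with sample weights (limma 3.58.1), and leaving out each mouse. The fit was tested on simulated data.

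The genes and lists were chosen with earlier results of these data known. All 28 genes are named, and of each neighbouring list the 2 with the smallest p. The values of 1 gene so named are not reported here. Mlkl is named as the target, Pecam1 and Cdh5 as examples of endothelial markers. Plvap and Emcn were named after their values were seen. Promoters came from RefSeq tables matched by symbol, and exon lengths and overlaps from GENCODE M21.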

Additional observations from a re-analysis of the deposited data

How the results depend on the processing

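The count of 0 of the 28 genes called held under each of the 14 alternatives, in both directions, with a lowest adjusted p of 0.174. The related genes called were 0 in each direction under all alternatives except DESeq2, which called 1 lower. The median log2 fold change of the 28 genes moved by less than the spread between mice (0.124) in every alternative. That spread is wider than the median itself (-0.034 in the main fit). The median ran from -0.125 with limma-voom to 0.0089 without mouse 1604, the setting in which its sign changed. The number of genes lower without overlap was 1 with all mice, 0 with upper-quartile scaling, 2 with library totals only and 2 to 8 over the 6 left-out mice, while 0 to 1 were higher. Over all genes 8.82%, 8.09% and 13.4 to 17.7% were lower in these settings, and 12.6 to 16.7% were higher with a mouse left out. The 28 genes were above the share of all genes in the lower direction without mouse 1603 (5 genes) and without mouse 1608 (8 genes), and at or below it in the other settings named. Of the 28 log2 fold changes, 13 kept their sign under every alternative, Srebf2, Msmo1, Cyp51 and Insig1 among them. The other 15, Sqle, Mbtps1 and Lss included, changed sign in at least 1 setting, none of them past the threshold. With upper-quartile scaling Ggps1 was 0.00041 and Tm7sf2 0.0051. With library totals only Tm7sf2 was 0.014. With limma-voom Fdps was -0.090, Mbtps1 0.021, Ebp -0.0019 and Tmem97 -0.13. Over the left-out mice the ranges were -0.12 to 0.052 for Acat2, -0.10 to 0.31 for Dhcr7, -0.059 to 0.11 for Ebp, -0.11 to 0.17 for Fdps, -0.085 to 0.056 for Ggps1, -0.14 to 0.052 for Hmgcs1, -0.041 to 0.058 for Insig2, -0.0086 to 0.34 for Lbr, -0.43 to 0.11 for Lss, -0.36 to 0.030 for Mbtps1, -0.21 to 0.0085 for Mvd, -0.12 to 0.53 for Sqle, -0.092 to 0.22 for Stard4, -0.19 to 0.14 for Tm7sf2 and -0.17 to 0.22 for Tmem97. The cause was not tested. No paired analysis was possible because mouse numbers do not recur between the groups.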
